A study of Mus musculus with 8 samples.

Results

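Polycomb repressive complex 2 (PRC2) was followed here at the level of its mRNAs, through 10 genes that were taken by symbol from the 55335 genes of the count data. They encode the catalytic subunits Ezh1 and Ezh2, the core subunits Suz12 and Eed, the histone-binding subunits Rbbp4 and Rbbp7, and the accessory subunits Mtf2, Phf19, Jarid2 and Aebp2. They were matched by name and not by a measured value, but the members were chosen with earlier results of these data known. All 10 genes were found, and all 10 passed the filter on low counts together with 16504 genes in total. The cells were E14 mouse embryonic stem cells (ESCs), an established line kept in medium with 2i and LIF, and every group carried a lentiviral shRNA vector and was selected with puromycin. The groups were a control that expressed a scrambled shRNA, a knockdown (KD) of Sox2, the pluripotency transcription factor, a KD of hnRNPK, an RNA-binding protein, and a KD of Cdk9, the kinase of the elongation factor P-TEFb. Each group had 2 biological replicates, hence 8 libraries of polyadenylated RNA with 16709201 to 17719366 counted reads. The line is 1 genotype, the cells are a bulk population, and which of the shRNAs designed for a gene a given library received is not given in the sources used here. With bulk RNA, fewer cells of a type and less RNA per cell cannot be told apart.

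PRC2 places methyl groups on lysine 27 of histone H3, and the trimethylated form, H3K27me3, marks silent developmental genes. The core of the complex is a catalytic subunit, EZH2 or its less active relative EZH1, with EED, which binds H3K27me3 and stimulates the enzyme, SUZ12, the scaffold, and RBBP4 or RBBP7. The accessory subunits divide the complex into a pair of classes. A Polycomb-like protein (MTF2, PHF19 or PHF1), which binds unmethylated CpG-rich DNA, defines the first class, with EPOP or a LCOR-family protein, and JARID2 with AEBP2 defines the second. ESCs live without PRC2 but differentiate poorly, and their H3K27me3 lies over CpG islands of developmental genes.

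The sequences in front of the start sites of Jarid2 and Mtf2 are shown because these genes had the largest differences in opposite directions among the well-detected members after Sox2 KD. They are the 250 bases before the RefSeq start, on GRCm38.p6 and on the + strand. Capitals mark a single fixed form of the letters that SOX proteins bind, ACAAT or its reverse complement ATTGT, called the SOX core here. Sites with other letters were not searched or marked, so that a window without the core may still hold such a site. The Jarid2 window is chr13:44730524-44730773, which lies within the span of the gene because other annotated transcripts start earlier, but in no annotated exon.
Jarid2: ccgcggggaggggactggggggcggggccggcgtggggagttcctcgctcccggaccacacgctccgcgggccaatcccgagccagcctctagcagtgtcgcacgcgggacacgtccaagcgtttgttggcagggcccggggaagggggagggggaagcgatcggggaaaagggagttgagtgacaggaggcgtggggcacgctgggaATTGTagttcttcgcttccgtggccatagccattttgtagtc
The Mtf2 window is chr5:108065424-108065673, just outside the annotated gene.
Mtf2: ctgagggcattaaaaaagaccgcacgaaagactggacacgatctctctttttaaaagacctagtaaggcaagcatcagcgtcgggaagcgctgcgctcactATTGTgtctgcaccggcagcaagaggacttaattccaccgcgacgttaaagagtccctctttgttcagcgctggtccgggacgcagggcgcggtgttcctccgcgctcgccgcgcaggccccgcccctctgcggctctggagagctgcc
Both windows are rich in CG dinucleotides, with 23 in each, and 67.2% of the Jarid2 bases and 59.2% of the Mtf2 bases are G or C. In these windows the SOX core lies 42 bases before the start in Jarid2 and 149 bases before it in Mtf2. A further RefSeq window of Jarid2, chr13:44731021-44731270, held 0 cores. A further window of Mtf2, chr5:108077915-108078164, held 1, which lies 151 bases before its start. Searched on both strands, the SOX core was present in 3 of the 14 RefSeq windows of the members, 1 of Jarid2 and 2 of Mtf2. It was present in 9086 of all 32851 windows of this length (27.7%). The longer letters AACAATG, which contain the core, were in 3.29% of all windows, and ATGCAAAT, the octamer that POU factors bind, was in 1.60%. Neither was in a window of a member. Such matches are letters, and no binding was measured.

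The Sox2 target sites of the hairpins are shown because a chance match to a PRC2 transcript would touch the values below.
SOX2-shRNA1: aggagcacccggattataaat
SOX2-shRNA2: caaagagatacaagggaattg
Both sites matched Sox2 with 0 mismatches. Over the transcripts of 14 PRC2 genes, the best match of SOX2-shRNA1 had 7 mismatches, in Aebp2, and that of SOX2-shRNA2 had 5, in Eed. The hairpins against hnRNPK and Cdk9 had at least 6 mismatches to each PRC2 transcript, and the control hairpin had at least 5. Only whole sites without gaps were compared, so that shorter matches were not tested. Ezhip, a gene described below, was not among the 14 genes.

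The targeted mRNAs check the labels. Sox2 was at 412 and 530.3 CPM (read counts relative to library size, with TMM factors) in control and at 320.4 and 284 CPM in Sox2-KD, and it fell by 0.64 on the log2 scale (adjusted p = 0.0479, edgeR, quasi-likelihood, Benjamini-Hochberg adjusted). Cdk9 was at 109 and 129 CPM in control and at 73.1 and 53.2 CPM in Cdk9-KD, a log2 fold change (log2FC) of -0.91 that did not pass the test (adjusted p = 0.0985, edgeR). Hnrnpk was at 1094 and 1131 CPM in control but at 697 and 1144 CPM in the libraries labelled hnRNPK-KD, so that replicate 2 goes against its label. That group is therefore written as the hnRNPK-labelled libraries, and any direction from it rests on labels that the mRNA bears out in replicate 1 only. The ESC markers Pou5f1 and Nanog were expressed in all groups, at 584 to 923 CPM and at 566 to 846 CPM. For both markers the Sox2-KD libraries lay below the control libraries (log2FC -0.25 and -0.43). Neither passed the test (adjusted p = 0.370 and 0.161, edgeR).

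Among the 10 members, the mRNA of Jarid2 rose in Sox2-KD E14 ESCs and no other member passed the test. Differential expression (DE) required a log2FC beyond 0.6 in either direction at an adjusted p below 0.05. In Sox2-KD against control 1 of 10 members was DE, where 4.32% of all tested genes were (2.63% higher and 1.69% lower). At an unadjusted p under 0.05 there were 3 members, Jarid2 higher and Mtf2 and Rbbp4 lower, against 19.3% of all genes. The Sox2-KD libraries lay outside the control libraries for 8 members, 2 above and 6 below, against 53.3% of all genes in either direction. The median log2FC of the members was -0.22, and that of all tested genes was 0.02. With 10 genes these counts are a description beside the background, and the call itself is that of Jarid2.

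Levels of different members were compared per length, as CPM per kilobase of annotated exons. In control cells Rbbp7 had the highest level, 137 ± 19.7 CPM per kilobase (SD, n = 2), followed by Suz12 with 117 ± 2.96 and Mtf2 with 105 ± 15.6. Rbbp4 (87.1 ± 12.2), Eed (61.7 ± 1.03), Jarid2 (31.9 ± 3.91), Ezh2 (27.8 ± 1.21) and Aebp2 (12.7 ± 0.574) came next in CPM per kilobase. Ezh1 was at 5.43 ± 0.663 and Phf19 at 0.129 ± 0.0702 CPM per kilobase. The control libraries of Suz12 and Mtf2, and those of Mtf2 and Rbbp4, overlapped, so that these neighbours cannot be ordered, and all other neighbours were separate in the control libraries. Between the Polycomb-like members the gap was wide: in control libraries Mtf2 had 649 and 1180 times the counts per kilobase of Phf19, which had only 16 and 7 reads. With the longest annotated transcript as the length, Rbbp7 stayed first and Phf19 last, while Rbbp4 moved up to rank 2, Suz12 down to rank 4, and Ezh2 passed Jarid2.

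**Figure D1:**
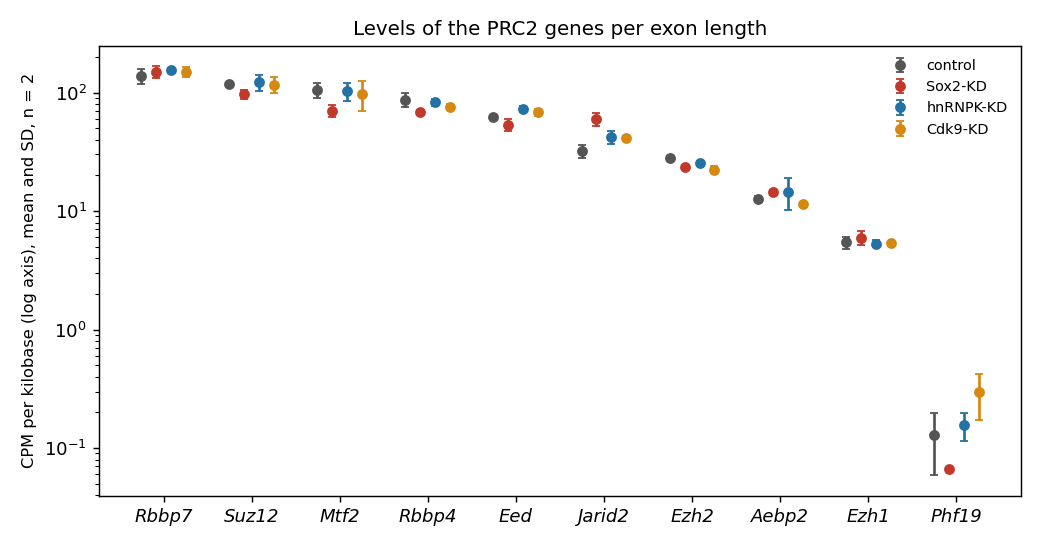
Mean CPM per kilobase of exon (log axis) of the 10 PRC2 genes in the 4 groups of 2 libraries, ordered by the control mean, with SD bars. Rbbp7, Suz12, Mtf2 and Rbbp4 lie near the top and Phf19 at 0.129 CPM per kilobase in control lies far below the rest, and the Sox2-KD point is the highest for Jarid2 and the lowest for Mtf2.

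JARID2, which recruits PRC2 and is itself methylated by it, gave the clearest difference. The gene (ENSMUSG00000038518.15, chromosome 13, 44729474 to 44921643, + strand, GRCm38) has no exon that overlaps another gene. Jarid2 was at 283 and 337 CPM in control, at 523 and 627 CPM in Sox2-KD, at 369.8 and 445 CPM in the hnRNPK-labelled libraries and at 410.1 and 398 CPM in Cdk9-KD. Every knockdown library lay above both control libraries, which the comparisons share, and the Sox2-KD libraries lay above all others. In Sox2-KD the rise was 1.86-fold, a log2FC of 0.89 ± 0.16 (SE; adjusted p = 0.0139, edgeR, quasi-likelihood, Benjamini-Hochberg adjusted). DESeq2 and edgeR's likelihood ratio test gave adjusted p values of 4.29e-05 and 6.25e-05. The rise kept its direction under all 16 alternatives, from 0.75 to 1.02 on the log2 scale. The call was lost without control replicate 1 (0.75, adjusted p = 0.127, edgeR), without control replicate 2 (1.02, adjusted p = 0.0571, edgeR) and without Sox2-KD replicate 2 (0.75, adjusted p = 0.123, edgeR), where 1 library stands for a group. In the hnRNPK-labelled libraries the log2FC was 0.39 (adjusted p = 0.577, edgeR), and in Cdk9-KD it was 0.38 (adjusted p = 0.442, edgeR), so that neither passed.

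AEBP2, the zinc-finger partner of JARID2, did not pass the test in any group. Aebp2 (ENSMUSG00000030232.18, chromosome 6, 140622663 to 140678472, + strand) was at 121 and 129 CPM in control, at 147 and 137 CPM in Sox2-KD, at 174 and 112 CPM in the hnRNPK-labelled libraries and at 110.2 and 115 CPM in Cdk9-KD. The Sox2-KD libraries lay above control and those of Cdk9-KD below, and the hnRNPK-labelled replicates lay on either side. The log2FC was 0.18 (95% interval -0.24 to 0.60) in Sox2-KD, which leaves room for an increase of up to the threshold, and -0.15 in Cdk9-KD (adjusted p = 0.656 and 0.844, edgeR).

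MTF2, the main Polycomb-like subunit of ESCs, was lower in Sox2-KD without passing the test. Mtf2 (ENSMUSG00000029267.17, chromosome 5, 108065674 to 108109004, + strand) was at 661 and 535 CPM in control and at 432 and 370.1 CPM in Sox2-KD. It was at 651 and 515 CPM in the hnRNPK-labelled libraries and at 446 and 667 CPM in Cdk9-KD. The Sox2-KD libraries were the lowest of the 8, while the other groups overlapped control, and the Cdk9-KD replicates stood further apart than any other pair. The log2FC in Sox2-KD was -0.58 ± 0.21 (SE; unadjusted p = 0.0192 and adjusted p = 0.157, edgeR), with a 95% interval from -1.04 to -0.11. It was negative under all 16 alternatives, from -0.73 to -0.43, and none of them made it DE. The lowest adjusted p over them was 0.0636. In the hnRNPK-labelled libraries the log2FC was -0.04 and in Cdk9-KD -0.10, and each changed sign when 1 library was left out. The paper lists MTF2 among genes with altered splicing after KD of both Sox2 and hnRNPK. The counts here are per gene and do not measure splicing. An exon of Mtf2 overlaps one of the antisense gene Tmed5, whose count was at most 9.32% of that of Mtf2, so that the share of antisense reads is uncertain.

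PHF19, a Polycomb-like subunit best known from tumours, was at the edge of detection. Phf19 (ENSMUSG00000026873.9, chromosome 2, 34893757 to 34914026, − strand) had 16 and 7 reads in control, 6 and 6 in Sox2-KD, 16 and 11 in the hnRNPK-labelled libraries and 18 and 33 in Cdk9-KD. The Cdk9-KD libraries were the highest and the Sox2-KD libraries the lowest of the 8. Its log2FC was 1.19 in Cdk9-KD (95% interval 0.0047 to 2.38; adjusted p = 0.479, edgeR) and -0.94 in Sox2-KD (95% interval -2.33 to 0.44; adjusted p = 0.458, edgeR). Counts this low leave intervals more than 2 log2 units wide.

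The catalytic subunits did not pass the test in any group. Ezh2 (ENSMUSG00000029687.16, chromosome 6, 47530139 to 47595341, − strand) was at 179.8 and 191 CPM in control, 159.6 and 156 CPM in Sox2-KD, 174 and 164 CPM in the hnRNPK-labelled libraries and 142 and 157 CPM in Cdk9-KD. All 6 knockdown libraries lay below both control libraries, which the comparisons share. The log2FC was -0.23 in Sox2-KD, -0.13 in the hnRNPK-labelled libraries and -0.31 in Cdk9-KD (adjusted p = 0.382, 0.881 and 0.454, edgeR), and in Cdk9-KD its 95% interval ran from -0.61 to -0.02. Ezh1 (ENSMUSG00000006920.14, chromosome 11, 101191115 to 101226463, − strand) was at 43.9 and 36.9 CPM in control, 40.4 and 48.5 CPM in Sox2-KD, 41.3 and 37.5 CPM in the hnRNPK-labelled libraries and 40.5 and 39.6 CPM in Cdk9-KD. Every knockdown overlapped control for Ezh1, with a log2FC of 0.14 in Sox2-KD (95% interval -0.23 to 0.51), -0.04 in the hnRNPK-labelled libraries and -0.01 in Cdk9-KD. The intervals of both genes in Sox2-KD stayed inside 0.6 log2 units on either side of 0.

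SUZ12 and EED, without which the enzyme is unstable and inactive, did not pass the test in any group. Suz12 (ENSMUSG00000017548.15, chromosome 11, 79993106 to 80034123, + strand) was at 571 and 591 CPM in control, 509.8 and 446 CPM in Sox2-KD, 669 and 536 CPM in the hnRNPK-labelled libraries and 516 and 638 CPM in Cdk9-KD. Its log2FC in Sox2-KD was -0.28 (95% interval -0.64 to 0.08; adjusted p = 0.391, edgeR). Eed (ENSMUSG00000030619.10, chromosome 7, 89954654 to 89980983, − strand) was at 234 and 239 CPM in control, 222 and 187 CPM in Sox2-KD, 291 and 267 CPM in the hnRNPK-labelled libraries and 249 and 274 CPM in Cdk9-KD. The Sox2-KD libraries lay below control for both genes, and for Eed the libraries of the other knockdowns lay above it. The log2FC of Eed was -0.21 in Sox2-KD, 0.24 in the hnRNPK-labelled libraries and 0.15 in Cdk9-KD (adjusted p = 0.479, 0.743 and 0.779, edgeR). Suz12, Eed and Ezh2 each share an exon stretch with an antisense gene. Those of Suz12 had 0 reads and that of Eed at most 0.519% of its count.

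RBBP4 and RBBP7 are close relatives that hold histones H3 and H4 and also serve in other chromatin complexes. Rbbp4 (ENSMUSG00000057236.10, chromosome 4, 129307100 to 129335370, − strand) was at 686 and 837 CPM in control, 617 and 578 CPM in Sox2-KD, 761 and 685 CPM in the hnRNPK-labelled libraries and 634 and 688 CPM in Cdk9-KD. Rbbp7 (ENSMUSG00000031353.13, chromosome X, 162760402 to 162779092, + strand) was at 359 and 440.1 CPM in control, 469 and 399 CPM in Sox2-KD, 464 and 435 CPM in the hnRNPK-labelled libraries and 403 and 462 CPM in Cdk9-KD. Rbbp4 was below control in both Sox2-KD libraries, while all groups of Rbbp7 overlapped control. The log2FC in Sox2-KD was -0.35 for Rbbp4 (unadjusted p = 0.0368, adjusted p = 0.224, edgeR) and 0.12 for Rbbp7 (adjusted p = 0.731, edgeR). Both genes overlap antisense exons, and for Rbbp7 the neighbour Txlng had up to 18.4% of its count, so that its level is uncertain.

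**Figure D2:**
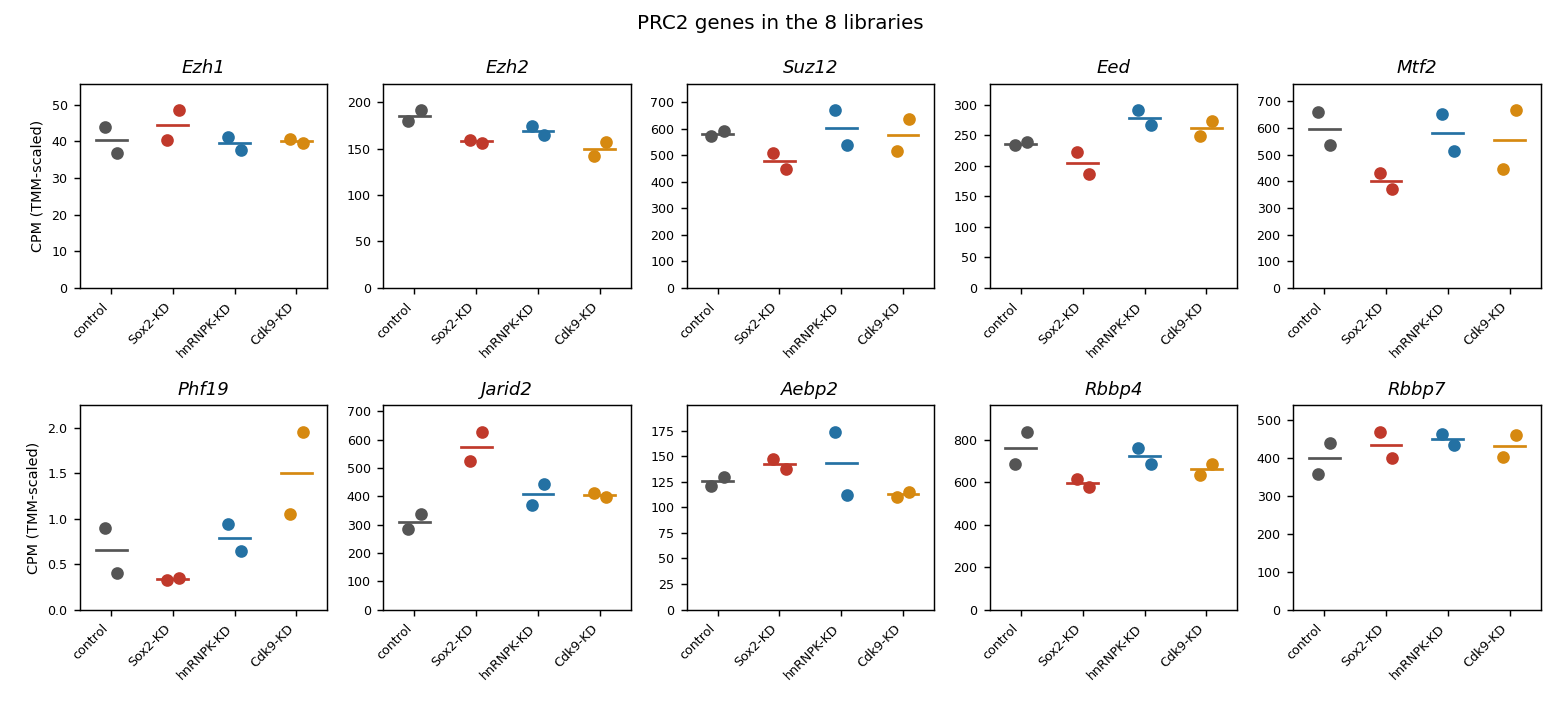
CPM of each PRC2 gene in the 8 libraries (1 point per library, a line at the mean of the 2 replicates, vertical axes from 0 and scaled per gene). Jarid2 is highest in the Sox2-KD libraries at 523 and 627 CPM and Mtf2 is lowest there at 432 and 370.1 CPM, while Ezh1 and Rbbp7 overlap between all groups.

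In the other knockdowns no member passed the test. In the hnRNPK-labelled libraries 0 of 10 members were DE, as were 0% of all genes by edgeR's quasi-likelihood test. At an unadjusted p under 0.05 the only member was Jarid2, against 8.03% of all genes, and 3 members had libraries outside those of control, against 39.1%. DESeq2 and the likelihood ratio test called 83 and 87 genes there and again no member, although DESeq2 gave no adjusted p for Phf19. Without replicate 2 of that group no member was DE either. In Cdk9-KD 0 of 10 members were DE by edgeR's quasi-likelihood test, against 0.139% of all genes. The likelihood ratio test and DESeq2 called 279 and 222 genes and no member, and DESeq2 again gave no adjusted p for Phf19. Jarid2, Phf19 and Ezh2 had an unadjusted p under 0.05, against 10.4% of all genes, and 5 members did not overlap with control, against 39.2%. The median log2FC of the members was 0.11 in the hnRNPK-labelled libraries and -0.01 in Cdk9-KD, and that of all genes was 0.02 in each. Without replicate 1 of the hnRNPK-labelled libraries the members' median turned to -0.12. These comparisons share the control libraries with Sox2-KD, so that all knockdown libraries on the same side of control are not separate results. The share of all genes with that pattern was not counted.

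**Figure D3:**
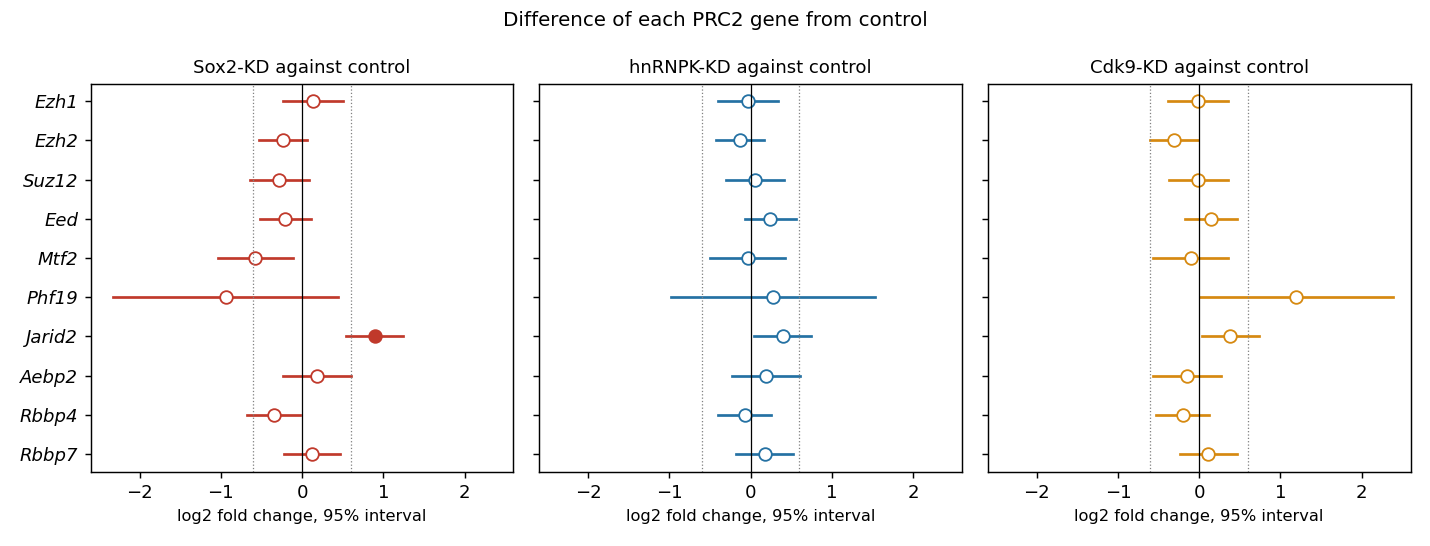
Log2 fold change against control of each PRC2 gene in the 3 knockdowns, with 95% intervals (edgeR's quasi-likelihood test over 8 libraries). Filled points are DE, open points are not, and dotted lines mark 0.6 in either direction. Jarid2 in Sox2-KD, at 0.89, is the only filled point, and the interval of Phf19 is the widest in each panel.

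The knockdowns were also compared with each other. No member was DE by edgeR's quasi-likelihood test between Sox2-KD and the hnRNPK-labelled libraries, where 5.9% of all genes were, or between Sox2-KD and Cdk9-KD, where 7.33% were. At an unadjusted p under 0.05 there were 3 and 4 members in these comparisons, against 21.3% and 21.7% of all genes, and DESeq2 called 0 members in each. Cdk9-KD and the hnRNPK-labelled libraries had 0 DE genes, 0% of those tested, and no member there had an unadjusted p under 0.05, against 5.71% of all genes. The log2FC of Jarid2 was 0.50 against the hnRNPK-labelled libraries (adjusted p = 0.0962, edgeR) and 0.51 against Cdk9-KD (adjusted p = 0.0817, edgeR). With library totals Jarid2 was DE against the hnRNPK-labelled libraries (0.61, adjusted p = 0.0446, edgeR). Against Cdk9-KD the adjusted p of Jarid2 was 0.0472 with library totals, 0.0372 by DESeq2 and 0.0430 by edgeR's likelihood ratio test, each with a log2FC short of 0.6. The other alternatives without crossed replicate numbers, each fitted for Jarid2, left the adjusted p of both comparisons above 0.05. For Mtf2 the values were -0.54 and -0.47 (adjusted p = 0.163 and 0.218, edgeR), and for Eed -0.45 and -0.35 (adjusted p = 0.0973 and 0.177, edgeR). Phf19 was lower in Sox2-KD than in Cdk9-KD by a log2FC of -2.14, just short of the threshold (adjusted p = 0.0519, edgeR), and it was past it by the likelihood ratio test (adjusted p = 0.00786).

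Ratios within a library compare members without a scaling factor between libraries. The sum of Mtf2 and Phf19 over the sum of Jarid2 and Aebp2, in counts per kilobase, was 2.80 and 1.97 in control and 1.10 and 0.828 in Sox2-KD. It was 2.06 and 1.58 in the hnRNPK-labelled libraries and 1.47 and 2.23 in Cdk9-KD. The Sox2-KD libraries lay below all others, at 0.407 times the control ratio, and the other groups overlapped control. With 2 libraries against 2, the exact two-sided permutation test cannot go below p = 0.333, which was its value here and in every comparison of ratios without overlap. The ratio of Jarid2 to Aebp2 was 2.37 and 2.64 in control, 3.62 and 4.63 in Sox2-KD, 2.16 and 4.02 in the hnRNPK-labelled libraries and 3.77 and 3.5 in Cdk9-KD. It was above control in Sox2-KD and Cdk9-KD and on both sides of it in the third group. The ratio of Rbbp4 to Rbbp7 was 0.636 and 0.633 in control, 0.437 and 0.482 in Sox2-KD, 0.545 and 0.524 in the hnRNPK-labelled libraries and 0.523 and 0.495 in Cdk9-KD. All 6 knockdown libraries lay below the shared control pair, which differed least of all. The fold was 0.724 in Sox2-KD, 0.843 in the hnRNPK-labelled libraries and 0.803 in Cdk9-KD.

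The ratio of Ezh1 to Ezh2 was 0.219 and 0.173 in control and 0.227 and 0.279 in Sox2-KD, 1.29 times control. It was 0.213 and 0.205 in the hnRNPK-labelled libraries and 0.257 and 0.227 in Cdk9-KD, so that Ezh2 was the predominant catalytic mRNA in every library. The ratio of Eed to Suz12 ranged from 0.522 to 0.644 over all 8 libraries, with every knockdown library above the shared control pair. The ratio of Mtf2 to Phf19 was 375 and 302 in Cdk9-KD, below the 649 and 1180 of control, and rests on the few reads of Phf19.

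**Figure D4:**
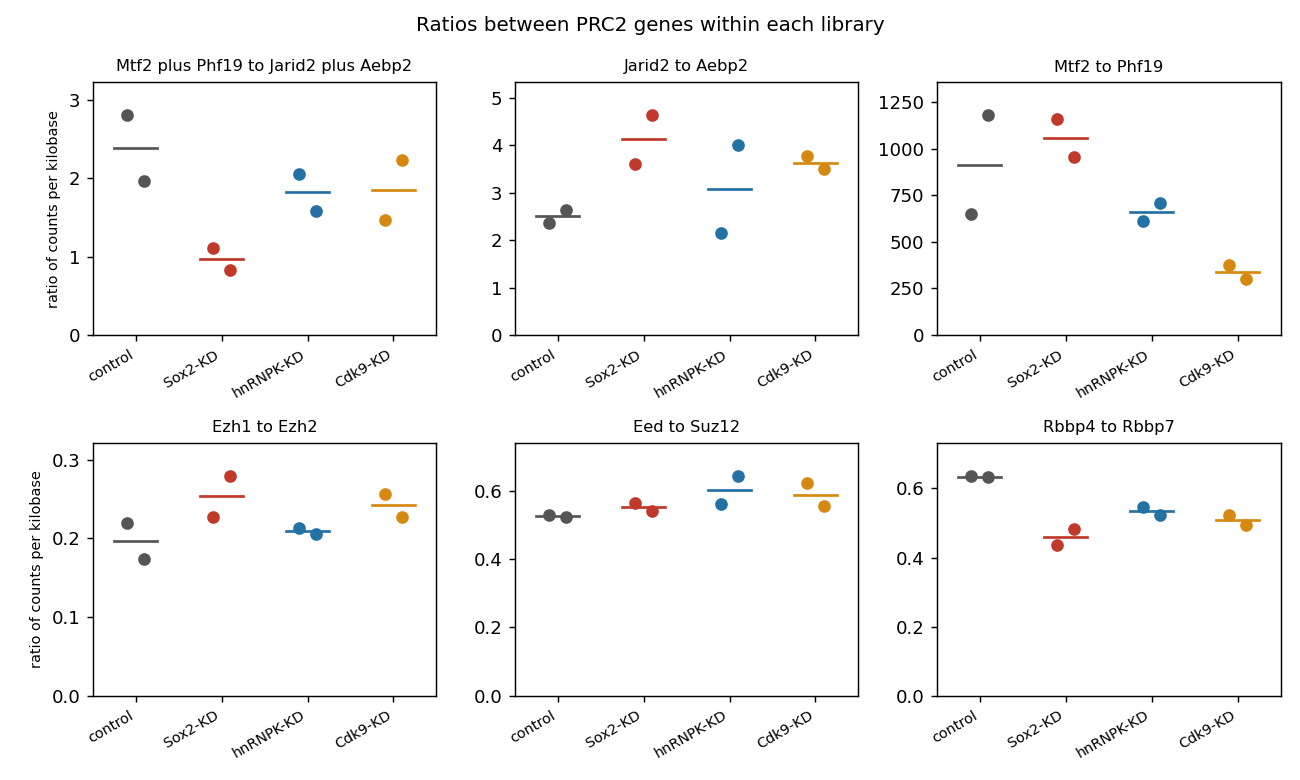
Ratios of counts per kilobase between PRC2 genes in each of the 8 libraries, with a line at the mean of the 2 replicates and axes from 0. The Sox2-KD points for Mtf2 plus Phf19 over Jarid2 plus Aebp2, 1.10 and 0.828, lie below all others, and all knockdown points for Rbbp4 over Rbbp7 lie below the control points at 0.636 and 0.633.

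Over the 8 libraries the log2 CPM of Mtf2 ran closest to that of Suz12 among the members (Pearson's r = 0.92, Spearman's rho = 0.88), followed by Eed (r = 0.75) and Phf19 (r = 0.70). That of Jarid2 ran opposite (r = -0.82, rho = -0.81), and Rbbp7, Aebp2 and Ezh1 had r of 0.08, 0.02 and -0.34. Among 9710 genes with an average log2 CPM over 3, those with the highest r to Mtf2 were Sgo1, which protects centromeric cohesion (r = 0.99), Zranb2, a splicing factor (r = 0.99), Bub1, a spindle checkpoint kinase (r = 0.98), and the zinc-finger genes Zfp975 and Zfp354c (r = 0.97 each). The 8 points are 4 groups of 2 that share their scaling, so these values describe the libraries only. By rank correlation 1 of these 5 genes stayed among the 5 most alike.

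Of the 5 further PRC2 subunits, Epop was DE and fell in Sox2-KD. EPOP joins the Polycomb-like class and binds elongin. Epop (ENSMUSG00000043439.5, chromosome 11, 97627389 to 97629702, − strand) was at 200.1 and 226 CPM in control, 133 and 130.1 CPM in Sox2-KD, 199 and 221 CPM in the hnRNPK-labelled libraries and 237 and 191 CPM in Cdk9-KD. The Sox2-KD libraries lay well below all 6 others, with a log2FC of -0.69 ± 0.15 (SE; adjusted p = 0.0318, edgeR, quasi-likelihood, Benjamini-Hochberg adjusted). Leaving out either control or either Sox2-KD library ended the call (log2FC -0.80 to -0.61, adjusted p 0.0909 to 0.199, edgeR), and the other 12 alternatives kept it. Phf1, the remaining Polycomb-like gene, was at 8.84 and 6.24 CPM in control and at 10.5 to 14.5 CPM in all knockdown libraries, with log2FC of 0.60, 0.82 and 0.77 in Sox2-KD, the hnRNPK-labelled libraries and Cdk9-KD. None passed the test (adjusted p = 0.229, 0.481 and 0.334, edgeR), and its overlapping neighbour Cuta had up to 458% of its count, so that Phf1 is uncertain. Ezhip, an inhibitor of PRC2 that was singled out after its values were seen, had 23 and 19 reads in control and 163 and 145 in Sox2-KD. In the other libraries it had 35, 7, 42 and 2 reads, and its log2FC of 2.85 in Sox2-KD did not pass the test (adjusted p = 0.0918, edgeR). Lcor and Lcorl had log2FC of 0.44 and -0.37 in Sox2-KD and were not DE.

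PRC1, which reads H3K27me3 through CBX proteins and ubiquitinates histone H2A, was represented by 23 genes. In Sox2-KD 1 of 23 was DE, against 4.32% of all genes, and 5 had an unadjusted p under 0.05, against 19.3%. The DE gene was Cbx2, the CBX protein that compacts chromatin. Cbx2 was at 38.5 and 44 CPM in control, 26 and 20.9 CPM in Sox2-KD, 36.2 and 27.1 CPM in the hnRNPK-labelled libraries and 31.6 and 36 CPM in Cdk9-KD. It fell by 0.81 on the log2 scale in Sox2-KD (adjusted p = 0.0455, edgeR), and 9 of 16 alternatives kept the call. All 4 fits without a control or a Sox2-KD library lost it (log2FC -0.99 to -0.67, adjusted p 0.0818 to 0.310, edgeR), as did the replicate block (adjusted p = 0.0567, edgeR), library totals (0.0533) and no filter on low counts (0.0633). The median log2FC of the 23 was -0.07 in Sox2-KD, against 0.02 over all genes, and in the other knockdowns 0 of 23 were DE by edgeR, with 1 and 3 at an unadjusted p under 0.05, against 8.03% and 10.4% of all genes. There the smallest p belonged to Scmh1 and Cbx7 in the hnRNPK-labelled libraries (log2FC -0.96 and 0.31) and to Bcor and Cbx7 in Cdk9-KD (log2FC -0.74 and 0.39). The 6 genes that remove H3K27me3 or the H2A ubiquitin mark had 0 DE genes in each knockdown by edgeR. At an unadjusted p under 0.05 there were 0, 0 and 1 of them, against 19.3%, 8.03% and 10.4% of all genes. The demethylase gene Kdm6a had a log2FC of 0.12 in Sox2-KD and 0.22 in the hnRNPK-labelled libraries. Asxl3, a cofactor of the H2A deubiquitinase, had -0.33 in Sox2-KD and 1.37 in Cdk9-KD, and Asxl1, its relative, had 0.34 in the hnRNPK-labelled libraries and 0.29 in Cdk9-KD.

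A list of 55 developmental genes, of the kind that carry H3K27me3 in ESCs, showed mostly near-silent mRNAs. The mark itself was not measured in these cells. Of the 55 genes, 22 passed the filter on low counts. Those 22 are not the whole list, because a gene that is high in a single group can pass through it. In Sox2-KD 4 were DE and higher and 1 was DE and lower, against 2.63% and 1.69% of all genes, and this count is a description only. Gata3 and Gata6 had 2 to 10 reads in each library of the other groups and so passed the filter through Sox2-KD. Gata2, a blood and trophoblast factor, was at 4.96 and 1.78 CPM in control and at 11.3 and 13.2 CPM in Sox2-KD (log2FC 1.86, adjusted p = 0.0404, edgeR). Gata3 had 5 and 3 reads in control and 43 and 50 in Sox2-KD (log2FC 3.48, adjusted p = 0.0103, edgeR), and the ratio of summed counts was 11.5 (95% exact counting interval 5.58 to 27.3, which covers counting error only). Gata6, of primitive endoderm, had 4 and 5 reads in control and 49 and 68 in Sox2-KD (log2FC 3.65, adjusted p = 0.0111, edgeR). These GATA genes were higher in both Sox2-KD libraries than in every control library.

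Eomes, a T-box factor of trophoblast and mesendoderm, was at 3.83 and 2.58 CPM in control, 8.96 and 9.25 CPM in Sox2-KD, 8.09 and 7.92 CPM in the hnRNPK-labelled libraries and 19.5 and 14.3 CPM in Cdk9-KD. It was above control in all 6 knockdown libraries and highest in Cdk9-KD. It rose in Sox2-KD (log2FC 1.5, adjusted p = 0.0166, edgeR) and in Cdk9-KD (2.39, adjusted p = 0.0191, edgeR), where it was the single DE gene of the 22, and its log2FC of 1.32 in the hnRNPK-labelled libraries did not pass (adjusted p = 0.304, edgeR). Sox1, a neural SOX gene, had 100 and 52 reads in control and 10 and 9 in Sox2-KD, and it fell by 3.0 on the log2 scale (adjusted p = 0.0102, edgeR). All 5 genes DE in Sox2-KD kept their direction under every alternative that could be fitted, and each lost the call in at least 3 of the 4 fits without a control or Sox2-KD library, with an adjusted p (edgeR) of 0.0917 to 0.198 for Gata2, 0.0649 to 0.0997 for Gata3, 0.0715 to 0.0909 for Gata6, 0.0503 to 0.135 for Eomes and 0.0538 to 0.0811 for Sox1. Gata2 kept it only without control replicate 1, Gata3 and Gata6 only without Sox2-KD replicate 1, Sox1 only without control replicate 2, and Eomes in none. With all libraries but no filter on low counts, Gata2 lost the call too (log2FC 1.82, adjusted p = 0.0512, edgeR). In Cdk9-KD Eomes lost the call without control replicate 1 (2.67, adjusted p = 0.0630, edgeR) or control replicate 2 (2.11, adjusted p = 0.162, edgeR).

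**Figure D5:**
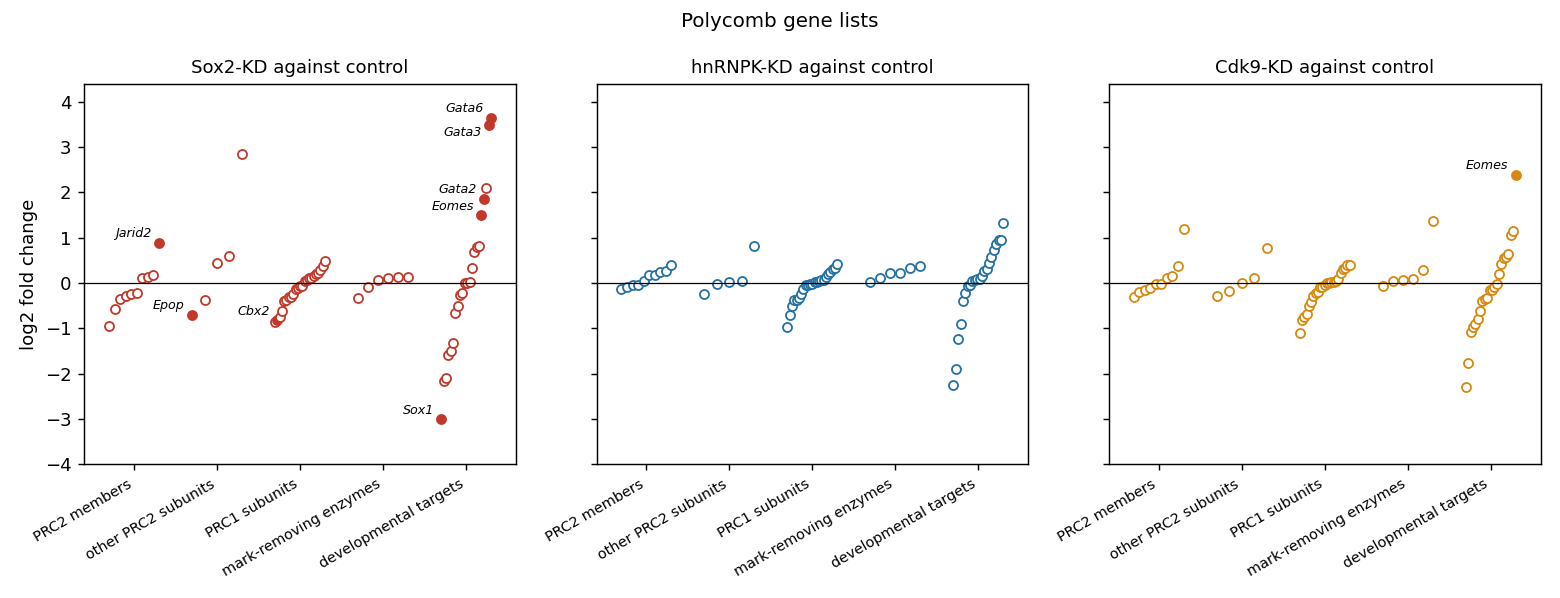
Log2 fold change of the tested genes of 5 Polycomb lists in the 3 knockdowns, 1 point per gene, ordered by value within a list, with DE genes filled and named. In Sox2-KD the filled points are Jarid2, Epop, Cbx2 and 5 developmental genes, from -3.0 for Sox1 to 3.65 for Gata6, whereas Cdk9-KD has Eomes alone and the hnRNPK-labelled libraries have none.

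Markers of other cell types moved in the same Sox2-KD libraries as Jarid2, Epop and the GATA genes. Of 8 tested trophectoderm markers 5 rose (Krt8, Krt18, Krt7, Gata3 and Eomes), against 2.63% of all genes. Krt7 (mean 0.284 CPM in control, 4.07 CPM in Sox2-KD) and Gata3 passed the filter through Sox2-KD. The count is therefore a description only. The 10 listed markers summed to 241 and 375 CPM in Sox2-KD, 143 and 149 CPM in control and 142 to 173 CPM in the other libraries. Krt8 was at 18.4 and 17.4 CPM in control and 97.1 and 182 CPM in Sox2-KD, and Elf5, a defining trophoblast factor, had 0 to 2 reads in every library. Other markers of this list were lower: Cdx2, a defining trophectoderm factor, had 351 and 613 reads in control and 111 and 109 in Sox2-KD (log2FC -2.15, adjusted p = 0.0521, edgeR), and Tfap2c had 771 and 751 reads in control and 523 and 570 in Sox2-KD (log2FC -0.50, adjusted p = 0.398, edgeR). Neither passed the test. Of 8 tested primitive endoderm markers 3 rose (Gata6, Dab2 and Sparc) and 1 fell (Lama1), against 2.63% and 1.69% of all genes. Gata6 passed the filter through Sox2-KD, so that this count is a description too. The listed endoderm markers summed to 506 and 682 CPM in Sox2-KD, 384 and 402 CPM in control and 454 to 547 CPM elsewhere. Afp had 0 to 3 reads throughout. Gata3, Gata6 and Eomes also stand in the list of developmental genes. Of 10 pluripotency genes 0 were DE in Sox2-KD by edgeR, with 1 at an unadjusted p under 0.05, against 4.32% and 19.3% of all genes. Their sum was 6768 and 7661 CPM in Sox2-KD and 8056 and 7473 CPM in control. Fibroblast markers summed to 3.84 to 7.77 CPM in all libraries, with Twist2 at 0 reads, although Lum rose in Sox2-KD (0 and 1 reads in control, 23 and 13 in Sox2-KD). Lum passed the filter through Sox2-KD. Col1a2 went the other way without passing the test (log2FC -3.44, adjusted p = 0.0565, edgeR). The part of such cells in the differences of the PRC2 genes was not tested.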

How the data were processed

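RNA-seq libraries of E14 ESCs were read in 4 groups of 2. Per the paper's methods and the submitters' processing notes, the authors trimmed reads with Trimmomatic, aligned them with STAR (2.7.9a in the notes) to mm10, the UCSC name of GRCm38, and counted reads per gene with featureCounts 2.0.1. The deposited values are raw read counts per gene, neither normalized nor pooled, and the strand setting is not given in the sources used here, so that overlapping antisense genes are uncertain. Nothing else says that the replicates came from separate cultures, beyond the label of biological replicates.

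Genes were named and placed with GENCODE vM21 (GRCm38), which gave 55154 of 55335 genes a symbol. Ezhip was found through a RefSeq synonym. Low genes were removed by filterByExpr (at least 10 reads, 15 in total), and the rest tested with edgeR 4.0.16 in R 4.3.3 (TMM, group term, quasi-likelihood, Benjamini-Hochberg). Intervals are 95% and log2 CPM used a prior count of 2. The test was tried on simulated data. Ratios used exact permutation tests in SciPy 1.17.1, and DESeq2 1.42.0 was an alternative. Near-identical copies were searched at 95% identity over 150 bases. Promoter windows and motifs came from RefSeq sequences (GRCm38.p6), and all 10 members matched. Hairpin sequences came from the study's supplementary oligo list. The genes named were the members, the DE genes of each list, the 2 genes of smallest p in a list without DE genes, and the 5 genes most like Mtf2. A gene that this rule names is not reported here. The members and lists were chosen with earlier results of these data known. Same-numbered replicates were checked for shared deviations, as the closing section gives. Totals of 16709201 to 17719366 reads limit mainly genes of a few reads, such as Phf19. Protein sequences were not used here.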

Additional observations from a re-analysis of the deposited data

Results flagged for a closer look

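Among the 10 members and the genes of the other Polycomb lists that were DE against control, the effect of Sox2 KD differed from that of another knockdown by a direct edgeR comparison for 5 genes, none of them a member. Listed genes that were not DE against control were also called in direct comparisons, among them Phc1 of PRC1, lower in Sox2-KD by a log2FC of -0.66 and -0.95 against the hnRNPK-labelled libraries and Cdk9-KD (adjusted p = 0.0460 and 0.00889, edgeR), and Pcgf1 by -0.93 against the former (adjusted p = 0.0431, edgeR). Epop was lower in Sox2-KD than in the libraries labelled hnRNPK-KD (log2FC -0.68, adjusted p = 0.0298, edgeR) and than in Cdk9-KD (log2FC -0.70, adjusted p = 0.0208, edgeR). Sox1 was lower by a log2FC of -3.08 and -3.43 in the same comparisons. Gata3 was higher by 3.44 and 3.83, and Gata6 by 3.20 and 4.72, where the comparison groups had 2 to 10 reads per library. Both passed the filter on low counts through Sox2-KD, so that their part in the count of 5 is a description only. The ratio of summed counts was 14.8 for Gata3 (95% exact counting interval 6.53 to 41.2) and 27.9 for Gata6 (95% exact counting interval 10.6 to 103.9) against Cdk9-KD. Gata2 was higher than in Cdk9-KD by a log2FC of 1.66 (adjusted p = 0.0442, edgeR). Directions against the libraries labelled hnRNPK-KD rest on a group whose replicate 2 did not show the knockdown. Groups of 2 were too small for a test of single outlying libraries.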

How the results depend on the processing

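Jarid2 was DE in Sox2-KD under all 8 alternatives other than leaving out a library, and the fits without 1 library gave 0 to 1 DE members in Sox2-KD. No other member became DE against control. Between Sox2-KD and the hnRNPK-labelled libraries 1 member was DE with library totals (Jarid2), and between Sox2-KD and Cdk9-KD 1 by the likelihood ratio test (Phf19). Of 476 values for the members against control, 458 kept their direction. The 18 that reversed came from leaving out 1 library, where log2FC ranged in Sox2-KD from -0.00059 to 0.25 for Ezh1 and from -0.037 to 0.27 for Rbbp7, and in the hnRNPK-labelled libraries from -0.17 to 0.073 for Ezh1, -0.13 to 0.18 for Suz12, -0.23 to 0.10 for Mtf2, -0.20 to 0.94 for Phf19, -0.17 to 0.45 for Aebp2 and -0.23 to 0.063 for Rbbp4. In Cdk9-KD it ranged from -0.16 to 0.080 for Ezh1, -0.17 to 0.10 for Suz12, -0.42 to 0.13 for Mtf2 and -0.063 to 0.24 for Rbbp7. The cause was not tested. A lone library left in a group was assumed to vary like the other groups.

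Counts over all genes moved more. DESeq2 called 83 genes in the hnRNPK-labelled libraries, 222 in Cdk9-KD and 56 between these groups, and the likelihood ratio test called 1350, 87 and 279 in Sox2-KD, the hnRNPK-labelled libraries and Cdk9-KD, 1690 and 1869 between Sox2-KD and these, and 67 between Cdk9-KD and the hnRNPK-labelled libraries. Without the low count filter 1 gene was called in the hnRNPK-labelled libraries. Without 1 library the counts ranged from 144 to 840 in Sox2-KD, 0 to 1 in the hnRNPK-labelled libraries, 0 to 33 in Cdk9-KD, 90 to 1100 and 337 to 1286 in Sox2-KD against these, and 0 to 6 between Cdk9-KD and the hnRNPK-labelled libraries. In the other Polycomb lists together, the 7 DE genes of Sox2-KD became 11 with DESeq2, 12 with the likelihood ratio test, 4 with at least 10 reads in every library, and 0 to 8 without 1 library. In the hnRNPK-labelled libraries 0 became 1 with DESeq2 and 2 with the likelihood ratio test, and in Cdk9-KD 1 became 2 with either and 0 to 1 without 1 library. Among the log2 ratios between members, leaving out 1 library turned the sign of Jarid2 to Aebp2 in the hnRNPK-labelled libraries (-0.21 to 0.68), of Ezh1 to Ezh2 there (-0.068 to 0.27), and of Mtf2 to Phf19 there (-0.84 to 0.027) and in Sox2-KD (-0.16 to 0.70).

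Same-numbered replicates were not taken as pairs, since the labels give no shared origin and their deviations did not correlate over 0.1 throughout: r was 0.31, 0.14 and -0.09 for Sox2-KD, the hnRNPK-labelled libraries and Cdk9-KD with control, 0.11 between Sox2-KD and the hnRNPK-labelled libraries and 0.03 between these and Cdk9-KD. A fit with a replicate block found 695, 0 and 15 DE genes in these comparisons, 905 and 1165 between Sox2-KD and the other knockdowns, and 1, 0 and 0 members against control. Between Sox2-KD and Cdk9-KD the correlation was -0.23, and a block with crossed numbers, chosen after seeing the data, gave 1331 DE genes and 1 DE member. Depth limits Phf19, Gata3 and Gata6 most. Of the 5 genes most like Mtf2, 4 stayed with library totals and 1 by rank correlation.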
